A study of Mus musculus with 12 samples.

Results

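Doublecortin and 9 other genes of the neuronal cytoskeleton were described in RNA from cultured subventricular zone cells of CD1 mice, an outbred stock. The 10 genes (Dcx, Dclk1, Tubb3, Stmn2, Stmn3, Map2, Mapt, Dpysl3, Dpysl5 and Crmp1) were taken by name from a table of 55401 genes, and a filter on low counts kept 16135 genes for testing, 9 of the 10 among them. Stmn2 did not pass that filter. The subventricular zone lines the lateral ventricles and holds stem cells that form neuroblasts and glia. Postnatal neural stem cells (NSC) from pups of postnatal day 0 to 2 and adult NSC from mice of 2 months were grown for 6 to 7 days as neurospheres, floating clusters of dividing cells, with 10 ng/mL FGF and 20 ng/mL EGF. Postnatal oligodendrocyte precursor cells (OPC) were dissociated primary neurosphere cells of day 0 to 2 mice kept for 2 days as a monolayer with FGF and PDGF-AA at 10 ng/mL each, PDGF-AA being the ligand of the OPC receptor PDGFRA. All 3 groups are untreated primary cultures in serum-free B27 medium, with no sorting of cells named in the labels. Each group has 4 libraries, from 4 independent litters. Libraries are numbered 1 to 4 in each group, as in the labels, which do not say whether libraries of different groups with 1 number share a litter.

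The proteins of these genes shape and stabilise microtubules in young neurons. Doublecortin binds the microtubule wall in migrating neuroblasts, tubulin beta-3 is a building block of neuronal microtubules, and stathmins hold free tubulin dimers. MAP2 and tau coat microtubules of dendrites and axons, and the CRMP proteins, made by the Dpysl genes and Crmp1, link guidance signals to microtubules and actin in growth cones. In the subventricular zone, doublecortin and tubulin beta-3 are widely used as markers of neuroblasts. OPC are also known to extend and retract processes that depend on microtubules, and some of these genes are not limited to neurons.

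Levels are given as CPM, counts per 1000000 after scaling by edgeR's TMM method, and as CPM per kb where genes are compared with each other. Postnatal NSC libraries held 38928989 to 54801726 counts, adult NSC libraries 16756231 to 20064043 and OPC libraries 17226501 to 23651396. Postnatal NSC 3 and postnatal OPC 2 stood apart in 24 genes of the G1/S phase of the cell cycle, whose summed level was 992.4 and 850.7 CPM there. The other libraries of their groups were at 1938 to 2579 and 2795 to 3251 CPM, and adult NSC were at 2776 to 3112 CPM. Each result was therefore also computed without both libraries. In bulk RNA, fewer cells of a type and less RNA per cell cannot be told apart.

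Start regions of 5 members are shown first, because members that were all highest in OPC differ there in base composition and in some motifs. Dcx, Stmn3, Map2 and Crmp1 were higher in OPC than in both neurosphere groups, and Dclk1 was higher in adult NSC than in both postnatal groups. The sequences are the parts of RefSeq's promoter windows (GRCm38.p6, strand of the gene, 5′ to 3′) that lie upstream of both the RefSeq and the GENCODE start, and capitals mark the motifs searched on both strands.
Dcx, chrX:143933312-143933469, minus strand: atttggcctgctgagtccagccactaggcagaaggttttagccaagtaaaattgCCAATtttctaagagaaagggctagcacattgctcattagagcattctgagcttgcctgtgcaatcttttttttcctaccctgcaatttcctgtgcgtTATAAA
Stmn3, chr2:181314501-181314700, minus strand: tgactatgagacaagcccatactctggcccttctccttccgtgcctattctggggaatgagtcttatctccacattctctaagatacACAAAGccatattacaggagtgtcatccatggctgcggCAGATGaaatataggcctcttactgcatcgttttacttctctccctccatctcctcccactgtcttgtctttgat
Map2, chr1:66175079-66175272, plus strand: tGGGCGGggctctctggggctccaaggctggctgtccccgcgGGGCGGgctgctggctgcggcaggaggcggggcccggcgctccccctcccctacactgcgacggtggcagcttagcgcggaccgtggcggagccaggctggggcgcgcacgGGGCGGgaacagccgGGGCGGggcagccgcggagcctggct
Crmp1, chr5:37241808-37241939, plus strand: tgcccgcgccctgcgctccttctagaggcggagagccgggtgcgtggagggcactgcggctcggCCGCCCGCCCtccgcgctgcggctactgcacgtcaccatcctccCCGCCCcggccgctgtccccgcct
Dclk1, chr3:55242164-55242363, plus strand: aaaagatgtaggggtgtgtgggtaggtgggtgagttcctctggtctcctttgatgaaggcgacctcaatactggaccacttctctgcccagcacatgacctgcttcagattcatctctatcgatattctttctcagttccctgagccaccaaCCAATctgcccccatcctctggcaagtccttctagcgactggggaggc
In these stretches GC made up 42.4% for Dcx, 46.5% for Stmn3, 79.4% for Map2, 77.3% for Crmp1 and 52.5% for Dclk1. The Map2 stretch holds 22 CpG dinucleotides and 4 matches to the GC box GGGCGG. Crmp1 has 18 CpG and 3 such matches, 2 of them overlapping. The Dcx stretch has 1 CpG and the letters of a TATA box (TATAAA) and a CCAAT box. From the RefSeq start of that window, TATAAA lies at -98 and CCAAT at -196, and neither was tested as a promoter element. Stmn3 carries ACAAAG, a SOX core, and CAGATG, an E-box, and Dclk1 carries 1 CCAAT box. ACAAAG is not particular to Stmn3. Outside the printed stretches it is also in a window of Dcx (at -8 from the start), in both windows of Crmp1 (-110 and -216) and in that of Dpysl5 (-15). Of 32817 windows of 300 bases around all starts in RefSeq's table, GGGCGG was in 35.6%, CCAAT in 37.4%, ACAAAG in 18.7%, CAGATG in 17.2% and TATAAA in 13.6%. The printed stretches are shorter, so these shares apply to whole windows and not to the stretches. The E-box CAGCTG, in 16.3% of all windows, was in none of the 10 windows used for 7 of the genes. Median GC over all windows was 52.7%, with 36.3% and 73.7% at the 5th and 95th percentiles, so the whole windows of Map2 (77.7%) and the first of Crmp1 (77%) lie above the upper one. A match is a string of letters and was not tested as a binding site.

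Per length, Dpysl3, Map2, Stmn3 and Crmp1 had the highest means in every group, with Crmp1 overlapping with Tubb3 in postnatal NSC. Stmn2 was lowest in every group, and Dcx was next to lowest in both NSC groups but above Dclk1 and Dpysl5 in OPC, where the 3 overlap in part. In postnatal NSC the mean was 86.2 CPM per kb for Dpysl3, 43.6 for Map2, 34.4 for Stmn3, 20.98 for Crmp1, 20.5 for Tubb3, 14.8 for Mapt, 5.68 for Dclk1, 3.63 for Dpysl5, 0.967 for Dcx and 0.326 for Stmn2. Neighbours whose libraries overlapped there were Map2 and Stmn3, Crmp1 and Tubb3, Tubb3 and Mapt, and Dcx and Stmn2. In adult NSC the order was Map2 (42.1 CPM per kb), Stmn3 (36.0), Dpysl3 (28.7), Crmp1 (21.5), Dclk1 (14.6), Tubb3 (5.02), Mapt (3.92), Dpysl5 (2.57), Dcx (0.0793) and Stmn2 (0.0253). Only Tubb3 with Mapt and Dcx with Stmn2 overlapped as neighbours in adult NSC. In OPC the order was Dpysl3 (106.2 CPM per kb), Map2 (86.1), Stmn3 (70.3), Crmp1 (30.9), Tubb3 (15.9), Mapt (9.44), Dcx (6.35), Dclk1 (5.20), Dpysl5 (2.94) and Stmn2 (0.0488). In OPC, each neighbour from Dpysl3 to Stmn3 and from Tubb3 to Dpysl5 overlapped with the next.

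**Figure D1:**
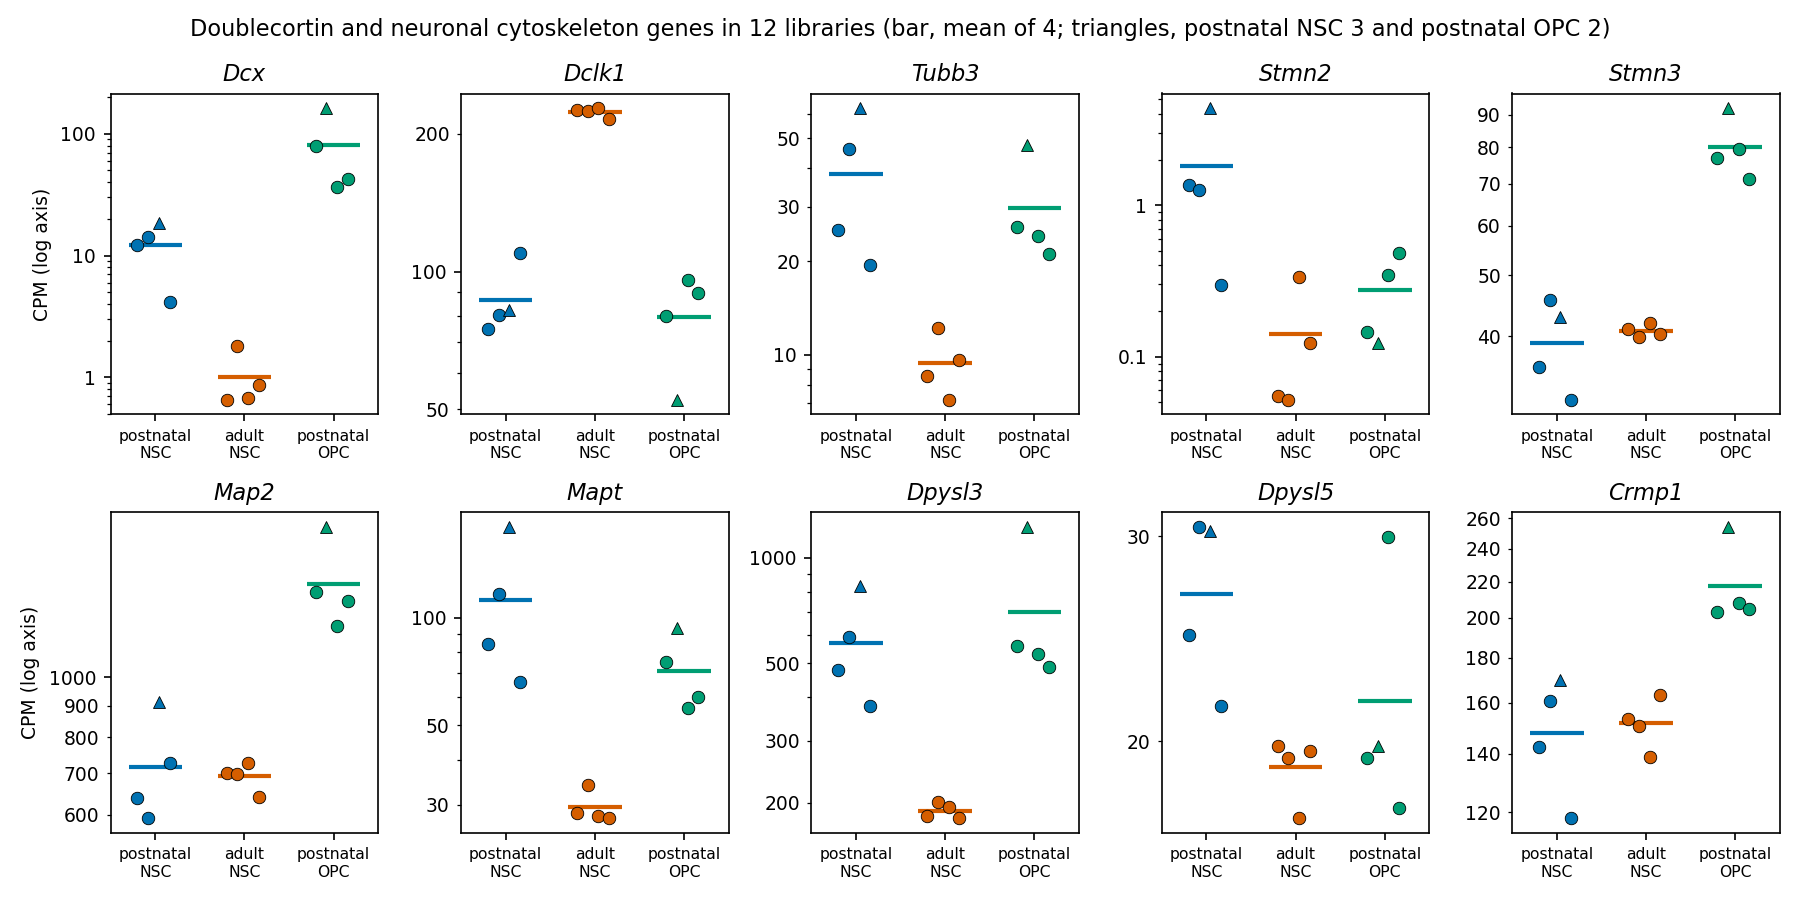
CPM of the 10 genes (log axis, 1 panel per gene) in each library of postnatal NSC, adult NSC and postnatal OPC, with a bar at the mean of 4 and triangles for postnatal NSC 3 and postnatal OPC 2. Dcx spans 0.655 to 162.4 CPM, adult NSC points of Tubb3, Mapt and Dpysl3 lie below all others, and those of Dclk1 lie above all others.

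Dcx, on the X chromosome (ENSMUSG00000031285.14, GRCm38 chrX:143855842-143933311, minus strand), is the doublecortin gene itself. Its level was 12.3, 14.1, 18.4 and 4.15 CPM in postnatal NSC 1 to 4, 0.655, 1.82, 0.676 and 0.864 CPM in adult NSC and 79.3, 162.4, 36.5 and 42.9 CPM in OPC. The 3 groups do not overlap: every OPC library was above every postnatal NSC library, and these were above every adult library. In edgeR's quasi-likelihood test, which gives all adjusted p-values here unless another tool is named, Dcx rose by 2.71 ± 0.52 (log2 fold change ± SE) in OPC against postnatal NSC, 6.56-fold (adjusted p = 0.00123). It fell by 3.59 ± 0.63 in adult against postnatal NSC, 12-fold (adjusted p = 0.00067). Against adult NSC, OPC were higher by 6.30 ± 0.67 (adjusted p = 1.14e-05). The adult value rests on 12, 35, 12 and 14 counts. Postnatal OPC 2 had the highest Dcx of all 12 libraries, and without it the log2 fold changes were 2.08 against postnatal NSC (adjusted p = 0.00234) and 5.71 against adult NSC (adjusted p = 8.4e-06). Without both low-G1/S libraries they were 2.37 and 5.70.

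Dclk1 (ENSMUSG00000027797.15, GRCm38 chr3:55242364-55539068, plus strand) encodes a kinase with doublecortin domains, and its pattern ran the other way. It was at 75.0, 80.2, 82.3 and 109.9 CPM in postnatal NSC, 225.5, 224.7, 227.7 and 215.6 CPM in the adult NSC and 80.1, 52.5, 95.7 and 89.7 CPM in OPC. All 4 adult libraries were above all 8 postnatal ones, and the postnatal groups overlapped. Dclk1 rose by 1.36 ± 0.17 in adult against postnatal NSC (2.57-fold, adjusted p = 7.32e-05) and fell by 1.49 ± 0.17 in OPC against adult NSC (adjusted p = 2e-05). Between the postnatal groups the log2 difference was -0.13 ± 0.17, with a 95% interval of -0.45 to 0.20 (adjusted p = 0.552). Postnatal OPC 2, highest for Dcx, was lowest for Dclk1. The related kinase gene Dclk2 had 340 ± 35.9 CPM (SD, n = 4) in postnatal NSC, 347.5 ± 22.3 CPM in OPC and 127 ± 8.19 CPM in adult NSC, so that it fell by 1.42 ± 0.09 in adult NSC (adjusted p = 6.36e-07). Per length, Dclk2 was the most abundant of the 4 doublecortin genes in both postnatal groups (32.2 and 32.9 CPM per kb), and Dclk1 was in adult NSC. Dclk3 stayed at 0.182 to 0.723 CPM as group means and fell in adult NSC by 1.97 ± 0.58 (adjusted p = 0.0131), on 13 counts in all adult NSC libraries and 131 in postnatal NSC.

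Tubb3, which encodes tubulin beta-3 (ENSMUSG00000062380.4, GRCm38 chr8:123411424-123422015, plus strand), was lower in adult NSC than in both postnatal groups. Its level was 25.3, 46.2, 62.5 and 19.4 CPM in postnatal NSC, 8.51, 12.2, 7.15 and 9.62 CPM in the adult NSC and 25.9, 47.5, 24.2 and 21.1 CPM in OPC. The highest adult library lies below the lowest postnatal one, while postnatal NSC and OPC overlap over most of their range. Tubb3 fell by 2.03 ± 0.37 in adult against postnatal NSC (4.09-fold, adjusted p = 0.000844) and was higher by 1.66 ± 0.37 in OPC than in adult NSC (adjusted p = 0.00258). The difference between OPC and postnatal NSC was -0.37 ± 0.35, with an interval of -1.06 to 0.32 (adjusted p = 0.413). Postnatal NSC 3 and postnatal OPC 2 had the highest Tubb3 of their groups, and without both the fall in adult against postnatal NSC was 1.70 (adjusted p = 0.000266).

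Of the other tubulin genes, 1 fell in adult NSC as Tubb3 did. Of 12 tested of 14 listed, none rose in any comparison, 3 fell in OPC against postnatal NSC, 1 in adult against postnatal NSC and 3 in OPC against adult NSC. These are 25%, 8.33% and 25% called, against 45.1%, 53.1% and 51.0% of all genes tested. The isotype genes Tubb2b (1840 ± 112, 1890 ± 23.2 and 1696 ± 132 CPM in postnatal NSC, adult NSC and OPC) and Tubb5 (956 ± 232, 1241 ± 58.6 and 1220 ± 348 CPM) passed in none. Tubb6 fell by 2.62 in OPC against adult NSC (adjusted p = 0.00444), from 164 ± 11.6 to 26.8 ± 19.4 CPM. Tubb4a, at 82.7 ± 59.9, 33.5 ± 2.04 and 65.1 ± 11.03 CPM, fell by 1.30 in adult against postnatal NSC (adjusted p = 0.0163), with its group means in the order of Tubb3. Several tubulin genes share long stretches with other genes, up to 72.9% of the 50-base stretches among those listed, so their counts are uncertain. The share was 49.6% for Tubb2a and 36.9% for Tubb2b. Tubb2a fell by 0.53 in OPC against postnatal NSC and by 0.46 in OPC against adult NSC. The level of Tubb1, a platelet tubulin, was 0 in all 12 libraries.

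Stmn3 (ENSMUSG00000027581.12, GRCm38 chr2:181306459-181314500, minus strand) encodes a membrane-bound stathmin of neurons. It was at 35.8, 45.7, 43.0 and 31.7 CPM in postnatal NSC, 41.2, 39.9, 42.0 and 40.4 CPM in the adult NSC and 77.0, 92.3, 79.3 and 71.1 CPM in OPC. Every OPC library lies above every neurosphere library, and the neurosphere groups overlap. Stmn3 rose by 1.03 ± 0.12 in OPC against postnatal NSC (2.05-fold, adjusted p = 3.69e-05) and by 0.97 ± 0.12 against adult NSC (adjusted p = 3.43e-05). Adult and postnatal NSC differed by 0.06 ± 0.12, with an interval of -0.16 to 0.29 (adjusted p = 0.656).

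Stmn2 (ENSMUSG00000027500.10, GRCm38 chr3:8509360-8561606, plus strand), the SCG10 gene of growth cones, was close to the limit of detection and was not among the genes tested. It had 55, 72, 175 and 12 counts in postnatal NSC (1.37, 1.26, 4.38 and 0.298 CPM), 1, 1, 6 and 2 counts in adult NSC and 3, 3, 6 and 10 counts in OPC. Of 314 counts in postnatal NSC, 175 came from postnatal NSC 3, and postnatal NSC 4 overlaps with OPC and adult NSC. The mean CPM of postnatal NSC was 12.9 times that of adult NSC and 6.68 times that of OPC. These ratios rest on single libraries: without postnatal NSC 3 they were 6.88 and 3.57, and without adult NSC 3, which holds 6 of the 10 adult counts, the first was 23.8. In a fit with no filter (30841 genes), log2 fold changes were -3.68 for adult against postnatal NSC (adjusted p = 0.00178), -2.77 for OPC against postnatal NSC (adjusted p = 0.00707) and 0.91 for OPC against adult NSC (adjusted p = 0.506). In group means, Stmn2 was highest in postnatal NSC, where Stmn3 and Dcx were highest in OPC.

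The other stathmin genes were highest in adult NSC. Stmn1, the stathmin of dividing cells, was at 215 ± 13.9, 365 ± 14.6 and 274 ± 56.3 CPM in postnatal NSC, adult NSC and OPC, and rose by 0.76 ± 0.12 in adult NSC (adjusted p = 0.00042). Its rise in OPC against postnatal NSC (0.35 ± 0.12, adjusted p = 0.0378, groups overlapping) was lost in 14.0 of 20 alternatives, with adjusted p-values of 0.0041 to 0.118. Stmn1 shares 18.9% of its 50-base stretches with the pseudogene Gm11223. Stmn4, a neuronal stathmin, was at 4.19 ± 2.40, 9.88 ± 2.88 and 2.55 ± 1.32 CPM, and fell by 1.94 ± 0.42 in OPC against adult NSC (adjusted p = 0.00226). Its rise in adult against postnatal NSC (1.23 ± 0.40, adjusted p = 0.0222) was lost on leaving out adult NSC 2 (1.06) or postnatal NSC 1 (1.00), 3 (1.12) or 4 (1.12), with adjusted p-values of 0.0526 to 0.0659.

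Map2 (ENSMUSG00000015222.18, GRCm38 chr1:66175273-66442583, plus strand) encodes the microtubule-associated protein of dendrites. It was at 637, 592, 912 and 727 CPM in postnatal NSC, 701, 699, 728 and 640.0 CPM in the adult NSC and 1375, 1752, 1210 and 1327 CPM in OPC. The lowest OPC library is above the highest neurosphere library, postnatal NSC 3. Map2 rose by 0.98 ± 0.14 in OPC against postnatal NSC (1.97-fold, adjusted p = 0.000198) and by 1.03 ± 0.14 against adult NSC (adjusted p = 8.95e-05). Adult and postnatal NSC differed by -0.05 ± 0.14, with an interval of -0.33 to 0.23 (adjusted p = 0.772).

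Mapt (ENSMUSG00000018411.17, GRCm38 chr11:104231390-104332090, plus strand), the gene of the axonal protein tau, was lower in adult NSC than in both postnatal groups. Its level was 84.3, 116.6, 179.5 and 66.3 CPM in postnatal NSC, 28.4, 34.1, 28.0 and 27.5 CPM in the adult NSC and 75.2, 93.4, 55.9 and 60.1 CPM in OPC. Adult libraries lie below all 8 postnatal ones. Mapt fell by 1.92 ± 0.27 in adult NSC (3.78-fold, adjusted p = 0.00017) and was higher by 1.27 ± 0.27 in OPC than in adult NSC (adjusted p = 0.00185). OPC against postnatal NSC gave -0.65 ± 0.26, with an unadjusted interval of -1.16 to -0.14 and an adjusted p of 0.0598, so that the call depends on the setting. It passed as a fall in 6 of 20 alternatives, among them without postnatal OPC 2 (-0.84, adjusted p = 0.026), without postnatal NSC 1 (-0.79, adjusted p = 0.0383) and without postnatal NSC 4 (-0.87, adjusted p = 0.0101). Without postnatal NSC 3, one of the low-G1/S libraries, it was -0.33 (adjusted p = 0.2), and with a Y-linked covariate -0.30 (adjusted p = 0.447).

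Other genes of microtubule-associated proteins split. Map1a fell in adult NSC by 1.21 ± 0.10 (202 ± 28.3 to 87.4 ± 4.14 CPM, adjusted p = 6.04e-06) and was at 201 ± 16.8 CPM in OPC. Map1b, the MAP of early axon growth, went the other way, as Dclk1 did. It rose in adult NSC by 1.36 ± 0.20, from 63.0 ± 11.4 to 162 ± 37.2 CPM (adjusted p = 0.000214), and was lowest in OPC at 26.1 ± 5.96 CPM, a fall of 1.27 ± 0.20 against postnatal NSC (adjusted p = 0.000355). Map4, the MAP of non-neuronal cells, rose in adult NSC by 0.47 ± 0.12 (577 ± 93.9 to 801 ± 34.5 CPM, adjusted p = 0.0053). Map6, which stabilises microtubules in the cold, fell in adult NSC by 0.75 ± 0.10 (25.8 ± 2.66 to 15.4 ± 1.12 CPM, adjusted p = 0.000108) and was at 32.5 ± 1.497 CPM in OPC. Its rise in OPC against postnatal NSC (0.33 ± 0.10, adjusted p = 0.0143) was lost without postnatal NSC 1 (0.24, adjusted p = 0.056), without postnatal OPC 1 (0.27, adjusted p = 0.0582) and with no filter (0.29, adjusted p = 0.0744).

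Dpysl3 (ENSMUSG00000024501.20, GRCm38 chr18:43320984-43438286, minus strand) encodes CRMP4, an actin- and tubulin-binding protein of immature neurons. It was at 477, 595.5, 830.3 and 376.5 CPM in postnatal NSC, 183, 201, 194 and 180.5 CPM in the adult NSC and 561, 1227, 532 and 487 CPM in OPC. Adult libraries lie below all postnatal ones, and postnatal OPC 2 is above every other library. Dpysl3 fell by 1.59 ± 0.30 in adult NSC (3.00-fold, adjusted p = 0.001) and was higher by 1.89 ± 0.30 in OPC than in adult NSC (adjusted p = 0.000263). Between the postnatal groups the difference was 0.30 ± 0.29, with an interval of -0.27 to 0.87 (adjusted p = 0.422), and -0.14 without postnatal OPC 2.

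Crmp1 (ENSMUSG00000029121.16, GRCm38 chr5:37241940-37292133, plus strand) encodes a mediator of semaphorin signals. Like Stmn3 and Map2, it was highest in OPC, with no call between the neurosphere groups. It was at 142.5, 161, 170 and 118 CPM in postnatal NSC, 153, 150.5, 139 and 163.5 CPM in the adult NSC and 203, 254.3, 208 and 205 CPM in OPC. All OPC libraries are above all neurosphere libraries. Crmp1 rose by 0.56 ± 0.12 in OPC against postnatal NSC (1.47-fold, adjusted p = 0.0021) and by 0.52 ± 0.12 against adult NSC (adjusted p = 0.00262). Adult and postnatal NSC differed by 0.04 ± 0.12, with an interval of -0.19 to 0.26 (adjusted p = 0.808).

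Dpysl5 (ENSMUSG00000029168.14, GRCm38 chr5:30711564-30799375, plus strand), the gene of CRMP5, had the smallest called change. It was at 24.7, 30.6, 30.3 and 21.5 CPM in postnatal NSC, 19.8, 19.3, 17.2 and 19.6 CPM in the adult NSC and 19.4, 19.8, 30.0 and 17.5 CPM in OPC. Postnatal OPC 3 was the high OPC library, in place of postnatal OPC 2. Dpysl5 fell by 0.50 ± 0.17 in adult NSC (1.41-fold, adjusted p = 0.0266). That call was kept in 13 of 20 alternatives and lost without adult NSC 2, 3 or 4, without postnatal NSC 2 or 3, with counts thinned to the smallest library and with a Y-linked covariate, with adjusted p-values up to 0.0753. OPC differed from postnatal NSC by -0.31 ± 0.17 (interval -0.64 to 0.02, adjusted p = 0.156) and from adult NSC by 0.19 ± 0.17 (interval -0.14 to 0.52, adjusted p = 0.375). The former passed as a fall of 0.50 without postnatal OPC 3 (adjusted p = 0.013).

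The remaining CRMP genes, Dpysl2 (CRMP2, which carries tubulin dimers) and Dpysl4, repeated the main patterns. Dpysl4 was at 77.8 ± 33.7, 24.5 ± 3.75 and 80.8 ± 23.6 CPM in postnatal NSC, adult NSC and OPC, a fall of 1.67 ± 0.29 in adult NSC (adjusted p = 0.000579). Dpysl2 was at 73.5 ± 20.5, 68.0 ± 3.78 and 104 ± 14.6 CPM and rose by 0.61 ± 0.17 in OPC against adult NSC (adjusted p = 0.0103). Its rise against postnatal NSC (0.50 ± 0.17, adjusted p = 0.0308, groups overlapping) was lost in a fit of only those 8 libraries and without postnatal NSC 1 (0.35) or 4 (0.37) or postnatal OPC 1 (0.42) or 2 (0.40), with adjusted p-values of 0.0755 to 0.103.

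**Figure D2:**
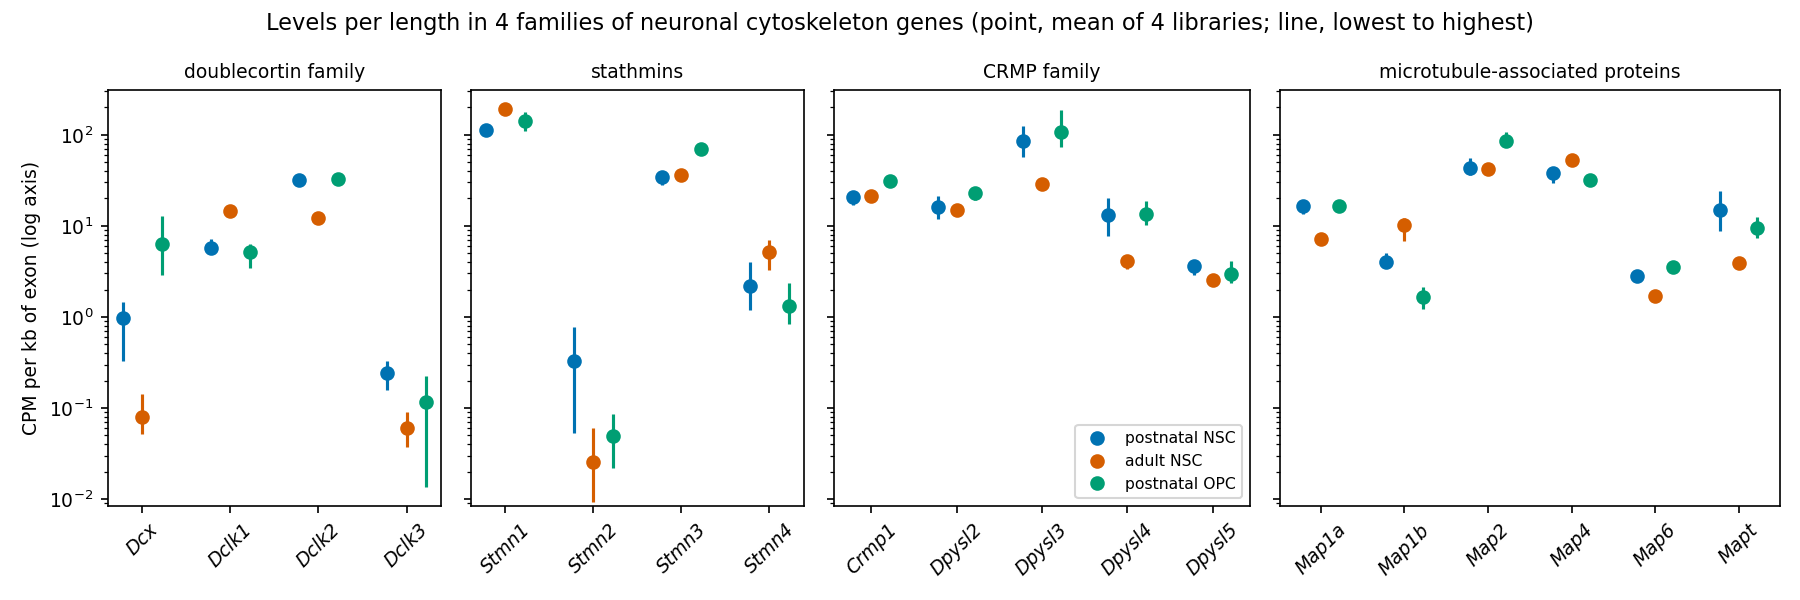
CPM per kb of exon (log axis) of the doublecortin, stathmin, CRMP and microtubule-associated protein genes in postnatal NSC, adult NSC and postnatal OPC, as the mean of 4 libraries with a line from the lowest to the highest. Adult NSC have the lowest point for Dcx, Dclk2, Dclk3, Stmn2, Dpysl2, Dpysl3, Dpysl4, Dpysl5, Map1a, Map2, Map6 and Mapt, though Map2 and Dpysl2 were not called against postnatal NSC. They have the highest for Dclk1, Stmn1, Stmn4, Map1b and Map4.

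Counted over the group, 4 of 9 tested members rose and none fell in OPC against postnatal NSC (Dcx, Stmn3, Map2 and Crmp1), while 45.1% of all 16135 genes passed in that comparison, 22.4% as rises. Of the other 10 genes of the same families, 3 rose and 1 fell. In adult against postnatal NSC, 1 member rose (Dclk1) and 5 fell (Dcx, Tubb3, Mapt, Dpysl3 and Dpysl5), where 53.1% of all genes passed, 25.2% as rises and 27.9% as falls. Family genes gave 4 rises and 5 falls. In OPC against adult NSC, 7 members rose and 1 fell, where 51.0% of all genes passed, 26.3% as rises and 24.7% as falls, and Dpysl5 alone did not pass. Median log2 fold changes of the 9 members were 0.3, -0.5 and 1.03 in the 3 comparisons, against -0.008, -0.025 and 0.006 over all genes tested. The comparisons share groups: postnatal NSC enter the first and second, and OPC and adult NSC enter the third. Every member that passed also had groups that do not overlap. Of all genes tested, groups did not overlap in 34.9% in the first comparison (18.0% higher and 16.9% lower in OPC), 53.2% in the second (27.2% higher and 26.0% lower in adult NSC) and 56.6% in the third (27.9% higher and 28.7% lower in OPC). With both low-G1/S libraries left out the counts were 4 rises and 1 fall (Mapt, -0.49, adjusted p = 0.0378), 1 and 5, and 7 and 1.

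**Figure D3:**
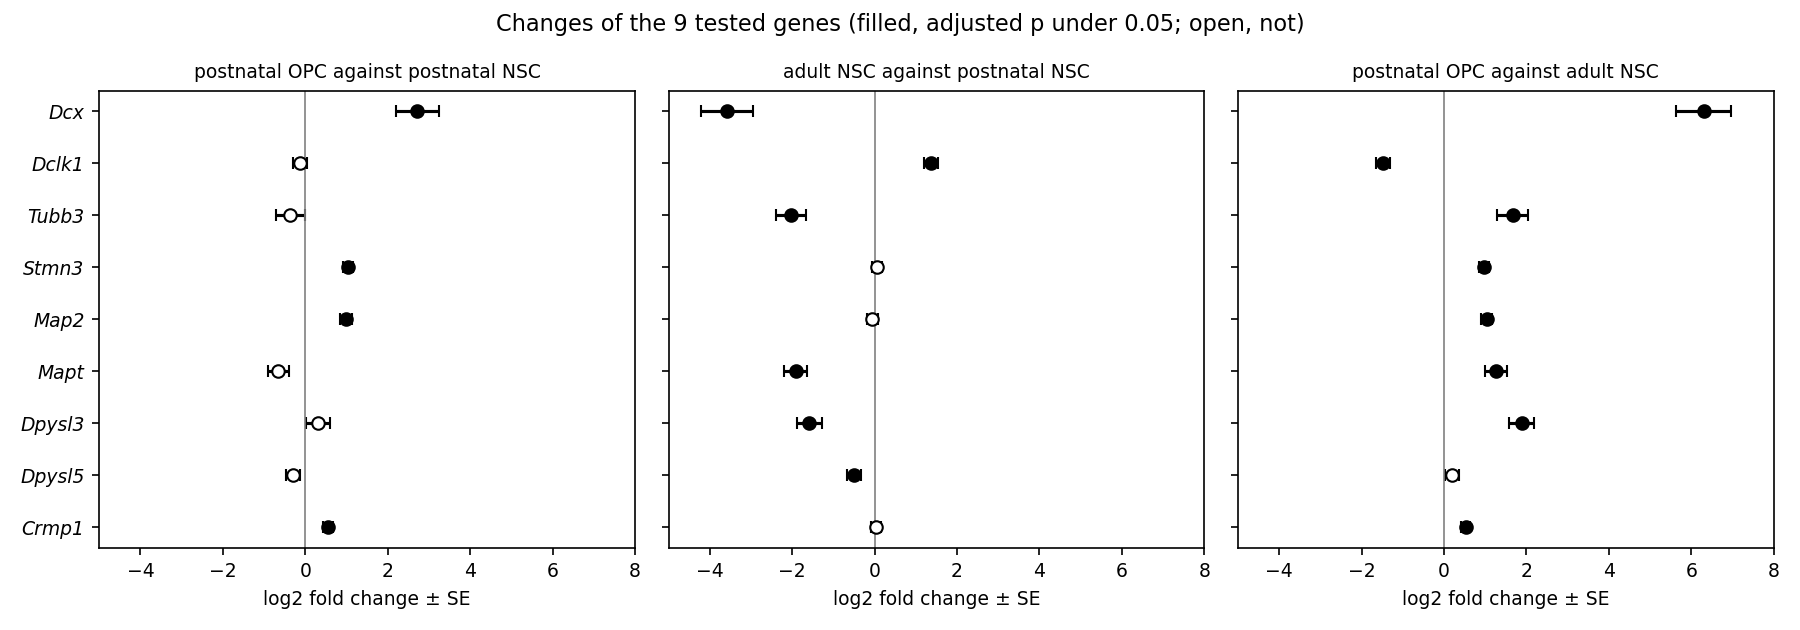
Log2 fold change ± SE of the 9 tested genes in the 3 comparisons, from the edgeR fit to 12 libraries (filled points passed at an adjusted p under 0.05). Dcx has the largest changes in all panels, from -3.59 in adult against postnatal NSC to 6.30 in OPC against adult NSC, and Dclk1 is the only filled point to the right in the middle panel.

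Within the groups, members differed between libraries, and mostly in the same libraries. Postnatal NSC 3 was the highest of its group for 7 of 10 members and postnatal NSC 4 the lowest for 8, and postnatal OPC 2 was the highest of its group for 7. The share over all genes was not computed, so these counts are not shown to be particular to the members. Chi-square between 2 libraries over its degrees of freedom, for genes tested, was 115.15 to 206.52 for pairs with postnatal NSC 3. Other postnatal NSC pairs had 54.28 to 91.43. In OPC it was 61.02 to 92.35 for pairs with postnatal OPC 2 and 6.29 to 23.23 for other pairs. Postnatal OPC 2 was at 2.66 times the median of its group for Dcx, 2.25 for Dpysl3 and 1.90 for Tubb3, with summed G1/S genes at 0.293. It was at 0.618 for Dclk1 and at 0.498 for Stmn2, the latter on 3 counts. Postnatal NSC 3 was at 3.33 times its group's median for Stmn2, 1.79 for Mapt, 1.75 for Tubb3 and 1.55 for Dpysl3, with G1/S genes at 0.445. Postnatal NSC 4 was low for Dcx (0.315 times the median), Stmn2 (0.227) and Tubb3 (0.544) and the highest of its group for Dclk1 (1.35), with G1/S genes not low (2579 CPM). Summed neuroblast and neuron markers (23 genes) were at 1725 CPM in postnatal OPC 2 against 938.3 to 1167 CPM in the other OPC libraries, and at 1141 CPM in postnatal NSC 3 against 842.7 to 1014 CPM in the other 3. Summed OPC markers (14 genes) were also highest in these libraries, at 17300 CPM in postnatal OPC 2 against 11850 to 11970 CPM in the others. In postnatal NSC 3 they were at 7542 CPM against 7019 to 7111 CPM. As mean log2 CPM, postnatal OPC 2 was at 3.576 for neuron markers (others 3.216 to 3.432) and 9.305 for OPC markers (others 8.434 to 8.547). The part of both lists in the members' levels was not tested. Coefficients of variation were compared for the members and not over all genes. Adult NSC had the lowest coefficient of variation of the 3 groups for 8 of 10 members, such as Dclk1 (2.39%) and Stmn3 (2.23%). The exceptions were Dcx, which varied least in postnatal NSC (48.9%), and Stmn2, which varied least in OPC (62.4%, against 94.9% in adult NSC).

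**Figure D4:**
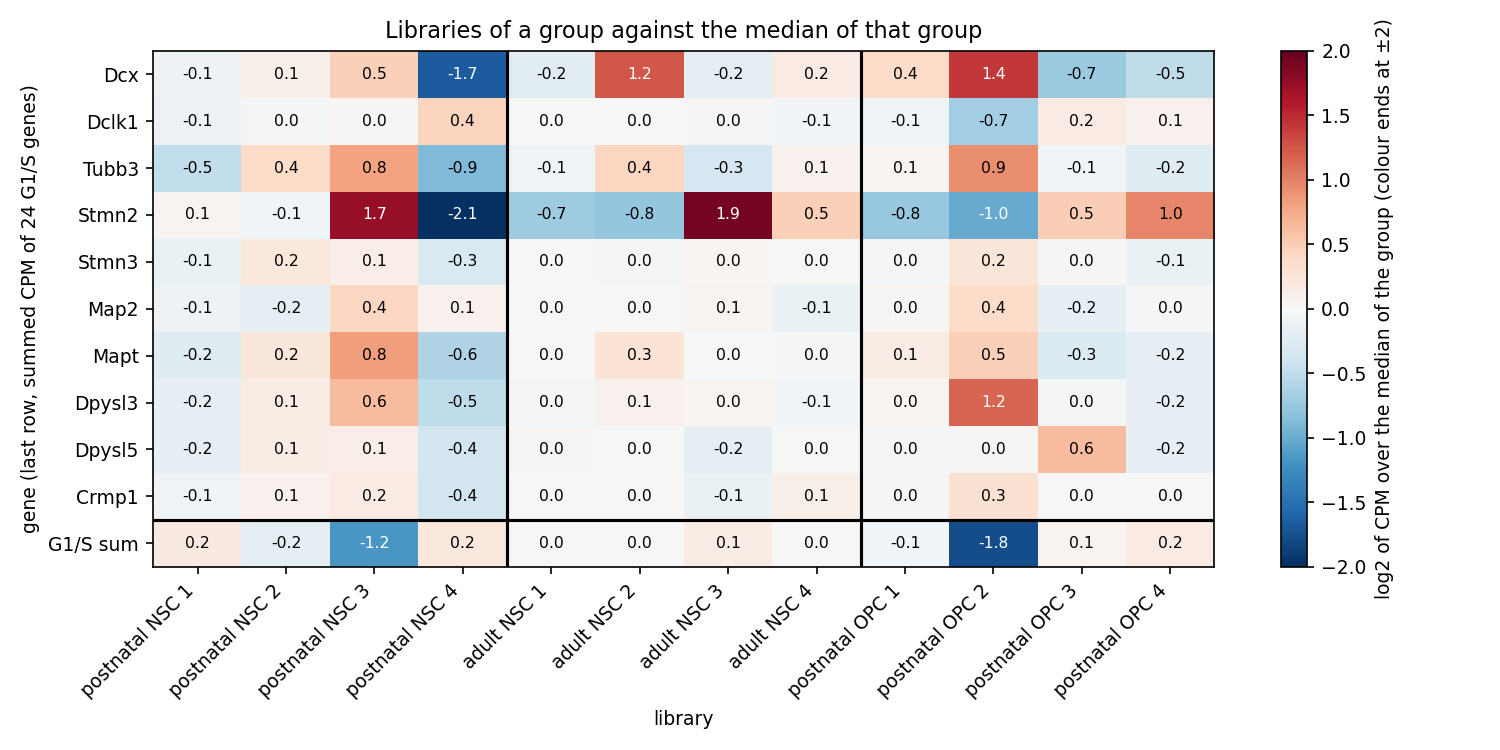
Log2 ratio of each library's CPM to the median of its group, for the 10 genes and, in the last row, for the summed CPM of 24 G1/S genes (colour ends at 2 and -2). Postnatal OPC 2 is red for Dcx, Tubb3 and Dpysl3, blue for Dclk1 and Stmn2 and at 0.293 times the median for G1/S genes, and postnatal NSC 4 is blue for Dcx, Tubb3 and Stmn2.

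Markers that define neuroblasts and neurons did not move as 1 block with Dcx. Dlx2, a transcription factor of interneuron precursors, was at 23.0 ± 10.5 CPM in postnatal NSC, 4.85 ± 1.57 in adult NSC and 6.91 ± 1.74 in OPC, so that it fell by 1.74 in OPC (adjusted p = 0.00137) where Dcx rose. Its neighbour Dlx1 fell by 2.36 (adjusted p = 0.00155), and by 1.63 with a Y-linked covariate. Sox11, a transcription factor of young neurons, rose by 1.05 in adult NSC (103 ± 11.6 to 213 ± 6.89 CPM, adjusted p = 2.39e-05), where Dcx and Tubb3 fell. Elavl3, an RNA-binding protein of neurons, rose by 1.13 in OPC against postnatal NSC (22.6 ± 9.19 to 49.2 ± 15.1 CPM, adjusted p = 0.00541). The synaptic vesicle gene Syt1 rose by 1.87 (1.89 ± 0.574 to 6.91 ± 2.34 CPM, adjusted p = 0.000227), and the adhesion gene Nrxn3 by 1.48 (9.09 ± 2.06 to 25.4 ± 4.17 CPM, adjusted p = 9.99e-05). Over the list, 18 of 23 genes were tested. Of these 9 rose and 5 fell in OPC against postnatal NSC, 4 and 7 in adult against postnatal NSC, and 9 and 4 in OPC against adult NSC. The share called was 77.8%, 61.1% and 72.2%, against 45.1%, 53.1% and 51.0% of all genes tested. The other 5 listed markers were under the filter, among them Neurod1 and Eomes of other neuron lineages, and Rbfox3, the NeuN gene of mature neurons, was at 0.999 ± 0.122, 2.35 ± 0.260 and 3.43 ± 1.06 CPM.

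Markers of other cells moved between the groups too. The OPC list of 14 genes had 8 rises and no fall in OPC against postnatal NSC, and 1 rise and 10 falls in adult against postnatal NSC, with summed CPM of 11850 to 17300 in OPC, 7019 to 7542 in postnatal neurospheres and 5812 to 6105 in adult ones. Pdgfra, the PDGF-AA receptor of OPC, was at 230 ± 59.6, 12.2 ± 2.99 and 1433 ± 710 CPM, the same order of groups as Dcx. Of 7 astrocyte genes, 1 rose and 2 fell in OPC against postnatal NSC, and 4 fell in adult NSC. Microglial markers summed to at most 1.97 CPM in any library, endothelial ones to 2.13 to 15.7 CPM and ependymal ones to 8.85 to 47.9 CPM, and Cx3cr1 and Tmem212 were at 0 in all libraries. Sox10, a transcription factor of the oligodendrocyte lineage, was at 136 ± 70.3, 12.4 ± 1.48 and 190.5 ± 130 CPM. Gfap, a filament gene of astrocytes and stem cells, was at 121 ± 93.9, 17.03 ± 6.70 and 22.9 ± 13.0 CPM, and Mki67, a gene of dividing cells, at 377 ± 65.2, 600 ± 35.5 and 457 ± 140.5 CPM. Neural stem markers had summed CPM of 5361 to 8125 in OPC, 7663 to 8290 in postnatal neurospheres and 9005 to 9770 in adult ones. Single genes of that list did not all follow the sum. Of its 10 genes, 4 rose and 5 fell in OPC against postnatal NSC, 2 and 3 in adult against postnatal NSC, and 6 and 3 in OPC against adult NSC. Over all genes tested, rises and falls in these comparisons were 22.4% and 22.7%, 25.2% and 27.9%, and 26.3% and 24.7%. Hes5, a target of Notch signalling, fell by 4.65 in adult against postnatal NSC (272 ± 403 to 10.8 ± 1.18 CPM, adjusted p = 0.00182), and by 2.73 without postnatal NSC 3 (adjusted p = 0.00128). Prom1, the CD133 gene, fell by 1.77 (49.9 ± 18.7 to 14.6 ± 1.56 CPM, adjusted p = 8.85e-05). Egfr rose by 0.59 and Nes by 0.43 in adult against postnatal NSC. In OPC against postnatal NSC, Vim fell by 1.71, Nes by 1.04 and Egfr by 0.77, while Sox9 rose by 0.93 and Fabp7 by 0.89. The part of the other cell types in the members' changes was not tested.

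Other genes of the microtubule pathway moved in both directions, as did all genes tested. Of 27 genes of microtubule-binding, severing and modifying proteins, 10 rose and 7 fell in OPC against postnatal NSC, 6 and 8 in adult against postnatal NSC, and 13 and 5 in OPC against adult NSC. That is 63%, 51.9% and 66.7% called, where 45.1%, 53.1% and 51.0% of all genes were. Camsap3, which caps microtubule minus ends, was at 1.92 ± 0.809, 0.429 ± 0.201 and 5.47 ± 3.85 CPM in postnatal NSC, adult NSC and OPC, the order of Dcx. It rose by 3.68 in OPC against adult NSC (adjusted p = 0.000178, and 3.06 without postnatal OPC 2), but its rise of 1.52 against postnatal NSC was lost without that library (0.86, adjusted p = 0.0823). The gene Map7, which recruits kinesin-1, fell by 2.26 in adult NSC (9.83 ± 4.38 to 2.05 ± 0.337 CPM, adjusted p = 0.000145). Vash1, a tubulin detyrosinase, rose in adult against postnatal NSC by 0.86 (adjusted p = 0.0049) and fell in OPC against adult NSC by 1.46 (251 ± 9.07 to 91.4 ± 18.2 CPM, adjusted p = 0.00015), as Dclk1 and Map1b did. Ttll7, a tubulin polyglutamylase, rose in OPC against postnatal NSC by 0.84 (23.7 ± 2.23 to 42.5 ± 2.80 CPM, adjusted p = 2.18e-05).

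Of 13 neuronal kinesin genes, 2 rose and 3 fell in OPC against postnatal NSC, 4 and 3 in adult against postnatal NSC, and 3 and 3 in OPC against adult NSC. Their shares called (38.5%, 53.8% and 46.2%) were near those of all genes (45.1%, 53.1% and 51.0%). Kif5a, a kinesin-1 heavy chain of neurons, fell in adult NSC by 1.45 (7.65 ± 2.98 to 2.79 ± 0.680 CPM, adjusted p = 0.00847), and Kif21a, a regulator of microtubule growth, by 1.38 (adjusted p = 0.00401). In OPC, Kif21a fell by 1.92 against postnatal NSC (96.5 ± 51.9 to 25.4 ± 8.03 CPM, adjusted p = 0.000627), where Map2 and Stmn3 rose. The depolymerase gene Kif2a rose in both comparisons with postnatal NSC, by 0.93 in OPC (adjusted p = 3.92e-05) and 0.88 in adult NSC (adjusted p = 6.78e-05).

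Among 16 genes of kinases and phosphatases that act on doublecortin, tau, MAP2 or the CRMPs, 8 rose and 3 fell in OPC against postnatal NSC, 2 and 5 in adult against postnatal NSC, and 6 and 2 in OPC against adult NSC. Called shares were 68.8%, 43.8% and 50%, against 45.1%, 53.1% and 51.0% of all genes. Ppp2r2b, a regulatory subunit of the phosphatase PP2A, had the order of Dcx, with 199.1 ± 79.9 CPM in OPC, against 88.7 ± 36.5 CPM in the postnatal NSC libraries and 15.3 ± 2.22 CPM in the adult ones. It rose by 1.17 in OPC against postnatal NSC (adjusted p = 0.00684) and fell by 2.54 in adult NSC (adjusted p = 7.85e-05). Cdk5, a kinase of doublecortin and tau, fell by 0.68 in OPC (adjusted p = 0.00288) and by 0.87 in adult NSC (adjusted p = 0.000574), from 96.8 ± 12.4 CPM in postnatal NSC. Its activator gene Cdk5r1 was at 42.0 ± 12.3, 18.1 ± 0.810 and 42.6 ± 12.3 CPM in postnatal NSC, adult NSC and OPC, a fall of 1.21 in adult NSC (adjusted p = 0.000677), as in Tubb3 and Mapt. Mapk10, the neuronal JNK gene, rose by 0.76 in OPC against postnatal NSC (19.3 ± 2.90 to 32.8 ± 3.61 CPM, adjusted p = 0.00052).

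Growth cone genes were divided, as all genes tested were. Of 18, 7 rose and 2 fell in OPC against postnatal NSC, 7 and 4 in adult against postnatal NSC, and 7 and 6 in OPC against adult NSC. This makes 50%, 61.1% and 72.2% called, against 45.1%, 53.1% and 51.0% of all genes. Gap43, a membrane protein of growing axons, was highest in adult NSC at 303 ± 13.2 CPM. Postnatal NSC had 54.9 ± 35.3 CPM and OPC 73.7 ± 32.1 CPM. It rose in adult NSC by 2.46 (5.52-fold, adjusted p = 0.000905), where Tubb3, Mapt and Dpysl3 fell. Nrn1, a gene for a neurite-promoting protein, rose by 4.40 in adult NSC (1.75 ± 1.09 to 36.9 ± 6.16 CPM, adjusted p = 1.25e-05). Basp1, related to Gap43 in function, rose by 1.38 in OPC against postnatal NSC (112 ± 31.7 to 292 ± 22.7 CPM, adjusted p = 7.8e-05). Gnao1, a G protein of growth cones, fell in adult NSC by 1.06 (93.1 ± 13.8 to 44.8 ± 2.99 CPM, adjusted p = 8.46e-05). Among neurofilament genes, 3 of 5 were tested and all 3 rose in OPC against postnatal NSC. Ina, alpha-internexin, was at 8.22 ± 3.46, 3.67 ± 0.211 and 29.7 ± 12.0 CPM, the order of Dcx, whereas Nefm was highest in adult NSC (12.9 ± 2.53, 45.03 ± 8.46 and 20.8 ± 1.64 CPM).

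Rest, a repressor of neuronal genes in other cells, did not pass in any comparison, with 41.1 ± 8.39, 41.1 ± 0.380 and 36.0 ± 5.25 CPM in postnatal NSC, adult NSC and OPC. Of 10 genes of its complex, 3 rose and 3 fell in OPC against postnatal NSC, 3 and 4 in adult against postnatal NSC, and 4 and 2 in OPC against adult NSC. These are 60%, 70% and 60% called, where 45.1%, 53.1% and 51.0% of all genes were. The corepressor gene Rcor2 fell in adult NSC by 1.31 (148 ± 28.0 to 59.8 ± 4.63 CPM, adjusted p = 0.000304), and Rcor1 fell in OPC against postnatal NSC by 0.63 (56.1 ± 7.21 to 36.3 ± 3.39 CPM, adjusted p = 0.000422).

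Genes with the profile most like that of Dcx over the 12 libraries were found by the root mean square difference between log2 CPM profiles, each centred and scaled to unit SD, among 10734 protein-coding genes. The closest were Grik3, a kainate receptor gene (0.139), Atcay (0.139), Bend5 (0.146), the dynamin gene Dnm3 (0.149) and the synaptic adhesion gene Lrrtm1 (0.157). Grik3 had group means of 80.4 CPM in postnatal NSC, 14.7 in adult NSC and 295 in OPC. For Tubb3 the closest were Apc2, a microtubule-linked relative of Apc (0.154), Pcgf2 (0.158), Dixdc1 (0.167), Tmeff2 (0.176) and Abcg4 (0.176), and Apc2 had group means of 96.3, 18.9 and 78.0 CPM. These likenesses describe profiles that share 3 groups and 12 libraries, and Stmn2 was not compared since it was under the filter.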

How the data were processed

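RNA from 12 cultures was made into stranded poly(A) libraries, per the labels. The authors deposited 1 table of raw counts per Ensembl gene, with no normalization. FastQC, STAR and featureCounts (version 1.22.2) are the tools and GRCm38 the build named in the submitters' processing notes. The annotation release, the strand setting and the treatment of multi-mapped reads are not given in the sources used here, so overlapping or repeated genes are uncertain. Exons of Dclk1 overlap antisense Gm42609 over 87 bases and those of Map2 overlap antisense Gm10558 over 124 bases, 0.6% and 0.8% of their exon length.

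Of 55401 identifiers, 55141 were named by GENCODE M21 on GRCm38. Low genes were removed with filterByExpr (grouped, minimum count of 10, minimum total of 15). It turns the minimum count into a CPM at the median library size, to be reached in as many libraries as a group holds. Stmn2 therefore failed in spite of 314 counts in postnatal NSC. Libraries were scaled by TMM and fitted over all 12 libraries with edgeR 4.0.16 in R 4.3.3 (quasi-likelihood, 1 term per group, two-sided, Benjamini-Hochberg over 16135 genes, called at an adjusted p under 0.05). DESeq2 1.42.0 was an alternative. SE is the absolute log2 fold change over the root of the F statistic. Intervals span 1.96 SE to each side and, unlike the adjusted p-values beside them, are not adjusted for the number of genes. They use a normal quantile in spite of few libraries, so they are approximate and likely too narrow. CPM per kb divides by the union exon length. The fit was also run on simulated counts with known changes and the same spread in all groups. That run does not test how the fit handles the unequal spread of these data. Groups and numbers came from the labels, and no pair of libraries in a group was a duplicate (chi-square over its degrees of freedom was 3.86 or more). P-values measure the spread between litters, which the fit shares over the 3 groups, and a batch that runs along the groups cannot be told apart from them. The groups differ in spread: that chi-square ratio was 3.86 to 9.84 in adult NSC, 6.29 to 92.35 in OPC and 54.28 to 206.52 in the deeper postnatal NSC. Fitted on only their 8 libraries, OPC against postnatal NSC gave 5699 called genes in place of 7276, with the same 4 members rising.

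The members and gene lists were chosen with earlier results of these data known. All members, the other members of their families, Sox11, Dlx2, Gap43, Rest, Pdgfra, Sox10, Gfap and Mki67 were named whatever their result, and 1 further gene of this rule is not reported here. From each other list, up to 3 rises and 3 falls per comparison could be named, if the groups did not overlap and the higher one reached 5 CPM. Tubb2b, Tubb5, Tubb4a, Rbfox3, Neurod1, Eomes, Tubb1, Cx3cr1 and Tmem212 were added after their values were seen. Promoter windows were taken from RefSeq's table for 7 of the 10 genes and span 250 bases before to 50 after a start. Windows on chromosome 18, where Dpysl3 lies, were left out for the members.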

Additional observations from a re-analysis of the deposited data

Results flagged for a closer look

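In 3 of 30 sets of 4 libraries (10 genes in 3 groups), 1 library lay far from the other 3, with a gap over the group's range above Dixon's critical value for 4 samples. Chance flags about 1 in 20 sets. The ratio was 0.900 for Dpysl3 in postnatal OPC, where library 2 was at 1227 CPM and the others at 487 to 561 CPM. It was 0.902 for Crmp1 in postnatal OPC, where the same library was at 254.3 CPM and the others at 203 to 208 CPM. For Mapt in adult NSC it was 0.861, where library 2 was at 34.1 CPM and the others at 27.5 to 28.4 CPM. Adult NSC 2 also had the highest Dcx (1.82 CPM) and Tubb3 (12.2 CPM) of its group.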

How the results depend on the processing

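The total of called members in both directions stayed within 1.5 times in all 20 alternatives: 4 rises and 0 to 2 falls in OPC against postnatal NSC, 1 and 4 to 6 in adult against postnatal NSC, and 7 and 1 in OPC against adult NSC. Stmn2 passed the filter in some of these, which adds a fall. With a replicate block the counts were 4 and 0, 1 and 5, and 7 and 1, and all genes called went from 7276 to 6811, 8569 to 8043 and 8234 to 7818. Same-numbered libraries did not all deviate together (correlations of -0.363 to 0.325), and not every library correlated best with its own number, so the pairing was not used. Postnatal NSC 4 and postnatal OPC 4 gave 0.325, and postnatal NSC 2 and postnatal OPC 2 gave 0.208. The largest value, 0.414, was between the low-G1/S libraries postnatal NSC 3 and postnatal OPC 2. Such correlations cannot tell whether litters were shared. Of 540 values of the members under an alternative, 514 kept their direction and side of the threshold, 7 lost a call, 7 gained one and 12 changed sign. All sign changes were in results that passed in neither case, and the cause was not tested. With Y-linked expression as a covariate the log2 fold changes of Tubb3 and Map1a in OPC against postnatal NSC were 0.084 and 0.049, and that of Dpysl2 in adult against postnatal NSC was 0.069. Without both low-G1/S libraries those of Map2, Dpysl2 and Rest in adult NSC were 0.074, 0.032 and 0.003. Rest was at 0.004 with thinned counts and 0.02 with the replicate block, and Dclk2 in OPC against postnatal NSC at -0.003 with no filter. Leaving out 1 library gave, in OPC against postnatal NSC, -0.226 to 0.001 for Dclk1, -0.143 to 0.536 for Dpysl3, -0.072 to 0.084 for Dclk2, -0.171 to 0.356 for Dpysl4, -0.136 to 0.045 for Map1a and -0.132 to 0.744 for Sox10. In adult against postnatal NSC it gave -0.065 to 0.111 for Stmn3, -0.172 to 0.083 for Map2, -0.101 to 0.107 for Crmp1, -0.269 to 0.041 for Dpysl2 and -0.125 to 0.104 for Rest, and in OPC against adult NSC -0.006 to 0.277 for Dpysl5. Depth limits values in adult NSC that rest on few counts over all 4 libraries, such as Stmn2 (10), Dclk3 (13), Camsap3 (30) and Dcx (73).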
